A study of Mus musculus with 10 samples.

Results

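Neutrophils are short-lived granulocytes that leave the bone marrow under the control of G-CSF and enter inflamed tissue along gradients of CXCR2 ligands. Their granule proteins are made in a fixed order during maturation, so that primary granule genes such as *Mpo* are switched off before the cells circulate, whereas *S100a8* and *S100a9* remain abundant in mature cells. In tumors, neutrophils have been linked both to tumor cell killing and to suppression of T cells. The 10 neutrophil genes described here were taken by symbol from 55401 gene rows counted in bulk tumor RNA. They are *S100a8* and *S100a9* (the paired subunits of calprotectin), *Csf3r* (the G-CSF receptor), *Retnlg* (a secreted resistin-like protein of mature neutrophils), *G0s2* (an inhibitor of triglyceride lipolysis), *Ly6g* (the surface antigen that defines mouse neutrophils), *Trem1* (a receptor that amplifies inflammatory signaling), *Clec4d* and *Clec4e* (paired C-type lectin receptors for microbial glycolipids) and *Acod1* (the enzyme that makes itaconate).

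The count tables cover 10 subcutaneous B16F10 melanomas taken on day 15, of which 5 grew from cells with a CRISPR-Cas9 knockout of *Mir25* (KO) and 5 from cells that carried a non-targeting guide (NTC). B16F10 is a mouse melanoma line of C57BL/6 origin, and the hosts were female C57BL/6J mice of 9 to 12 weeks. According to the sample labels, 50000 tumor cells were injected, and the methods of the study give another number. Every host, in the KO and the NTC group alike, received GVAX, an irradiated B16 vaccine that secretes GM-CSF (1000000 cells on days 1 and 4), and an anti-PD-1 antibody at 10 mg/kg on days 6, 9 and 12. There were therefore no untreated tumors, and GM-CSF itself, a myeloid growth factor, was given to both groups. The sources used here do not say which guide, pool or clone of KO cells gave these tumors. The comparison of KO with NTC tumors asks whether loss of miR-25 in the tumor cells changed the immune content of tumors under the same therapy. No library had a read on *Mir25*, whose annotated transcript is a short precursor, so the counts do not check the knockout.

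NTC replicate 1 stood apart from the other libraries before any neutrophil gene was considered. Its total on genes was 11896643 reads, whereas the other 9 libraries held 23243707 to 28682130, and 42.9% of its reads lay outside genes, against 17.5% to 28.2%. Reads fell on 33193 genes, against 22192 to 25435, and its TMM factor, which corrects the library size for composition, was 0.628. Its values below are CPM on the TMM-corrected library size. On its library total alone they were lower, such as 16.2 CPM for *S100a8*, 22.7 CPM for *S100a9*, 89.9 CPM for *Clec4d* and 2.27 CPM for *Retnlg*. Group comparisons of the members are given with this tumor (10 tumors) and without it (9 tumors).

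The label was checked against *Ly6g*, *Trem1*, *Cxcr2* and primary granule genes, and these had few reads. Other genes of the neutrophil lists described below had more, such as *Fpr2* with 901 reads in KO replicate 2 and *Mmp8* with 501 in KO replicate 5. *Ly6g* had 1 read in KO replicate 3, 1 in NTC replicate 1, 1 in NTC replicate 3 and 0 in the other 7 libraries. In single libraries, a count of 0 or 1 leaves room for up to 3.69 or 5.57 reads (exact Poisson 95% limits, for counting error only). *Ly6g* belongs to a family of near-identical genes, and reads that matched several of them could have been set aside by the counting. *Trem1* had 0, 2, 0, 0 and 2 reads in KO replicates 1 to 5 and 7, 1, 5, 0 and 0 reads in NTC replicates 1 to 5. *Cxcr2*, the chemokine receptor of mature neutrophils, had 22, 2, 2, 2 and 27 reads in KO tumors, 38 in NTC replicate 1, 1 in NTC replicate 2 and 0 in NTC replicates 3 to 5. Among 5 primary granule genes, *Ms4a3* had no read in any tumor, *Mpo* had at most 7, *Elane* at most 2 and *Ctsg* at most 34, in KO replicate 1. Since such genes are switched off before neutrophils circulate, few reads on them say little about mature cells. *Trem1* and the remaining members are also expressed by monocytes, macrophages or other cells, so the 10 genes are called neutrophil genes here by their list and not as a count of neutrophils. In bulk tissue, fewer cells of a type and less RNA per cell cannot be told apart.

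The members lie on 8 chromosomes of GRCm38, and 2 pairs are neighbors. Coordinates are those of the whole gene in GENCODE M21. *S100a8* (ENSMUSG00000056054.9) lies at chr3:90668978-90670035 on the plus strand, and *S100a9* (ENSMUSG00000056071.12) at chr3:90692632-90695721 on the minus strand. *Clec4d* (ENSMUSG00000030144.4) lies at chr6:123262111-123275265 on the plus strand, and *Clec4e* (ENSMUSG00000030142.10) at chr6:123281789-123289870 on the minus strand. *Csf3r* lies at chr4:126024550-126044440, *Retnlg* at chr16:48872621-48874496, *Ly6g* at chr15:75155240-75159126, *Trem1* at chr17:48232768-48246924 and *Acod1* at chr14:103046977-103056573, all on the plus strand. *G0s2*, at chr1:193272161-193273217 on the minus strand, lies within the span of *Lamb3* on the plus strand, and *Trem1* overlaps AC241601.2 on the minus strand. The strand setting of the counting is not given in the sources used here, so reads of these overlapping genes might not have been kept apart.

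Across tumors the log2 levels within each neighboring pair were closely correlated, so the 250 bases before their RefSeq starts (GRCm38.p6) are shown. Capitals mark matches, on either strand, to TTNNGNAA (a C/EBP motif, for factors of granulocyte maturation), AGGAAGT (a motif of PU.1 and other ETS factors) and TATAAA (the TATA box). No match overlapped another in these windows. The windows are chr3:90668821-90669070 for *S100a8*, chr3:90695722-90695971 (minus strand) for *S100a9*, chr6:123261857-123262106 for *Clec4d* and chr6:123289872-123290121 (minus strand) for *Clec4e*. The RefSeq start of *S100a8* lies downstream of the GENCODE start, so part of its window lies inside the gene as GENCODE draws it.
S100a8: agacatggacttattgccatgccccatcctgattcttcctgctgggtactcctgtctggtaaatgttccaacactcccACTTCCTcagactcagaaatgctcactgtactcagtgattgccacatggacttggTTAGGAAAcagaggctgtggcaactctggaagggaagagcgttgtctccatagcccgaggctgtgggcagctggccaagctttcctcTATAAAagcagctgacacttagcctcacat
S100a9: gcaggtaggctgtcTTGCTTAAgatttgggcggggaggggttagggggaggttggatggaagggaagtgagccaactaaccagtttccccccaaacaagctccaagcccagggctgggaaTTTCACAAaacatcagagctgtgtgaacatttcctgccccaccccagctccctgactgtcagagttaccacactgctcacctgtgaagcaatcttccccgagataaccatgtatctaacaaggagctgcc
Clec4d: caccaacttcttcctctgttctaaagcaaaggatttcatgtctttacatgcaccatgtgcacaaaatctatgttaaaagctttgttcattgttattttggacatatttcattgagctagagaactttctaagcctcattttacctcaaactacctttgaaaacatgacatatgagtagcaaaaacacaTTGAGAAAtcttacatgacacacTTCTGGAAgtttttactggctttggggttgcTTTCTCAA
Clec4e: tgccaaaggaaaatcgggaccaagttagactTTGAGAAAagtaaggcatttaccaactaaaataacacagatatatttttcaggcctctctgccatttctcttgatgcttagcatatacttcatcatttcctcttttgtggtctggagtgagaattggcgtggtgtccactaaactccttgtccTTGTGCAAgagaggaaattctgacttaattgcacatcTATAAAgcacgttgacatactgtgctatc

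The C/EBP letters occurred in all 4 of these windows, with 1 match in *S100a8*, 2 in *S100a9*, 3 in *Clec4d* and 2 in *Clec4e*. Over the 10 members, 7 had at least 1 C/EBP match, 4 a PU.1 match and 4 a TATA match in the same window. Among 32536 promoter windows of that length, 36.8% held the C/EBP letters, 7.70% the PU.1 letters and 12.3% the TATA letters. A match describes the letters only, and binding was not measured.

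The calprotectin genes gave the widest spread between tumors. *S100a8* was at 3.85, 3.95, 0.539, 0.649 and 5.34 CPM in KO replicates 1 to 5. In NTC replicates 2 to 5 it was at 0.164, 0.379, 0.244 and 0.486 CPM, and in NTC replicate 1 at 26.0 CPM. Thus 3 KO tumors lay well above NTC replicates 2 to 5, 2 KO tumors lay just above them, and NTC replicate 1 lay above every KO tumor. *S100a9* was at 2.38, 1.71, 0.438, 0.397 and 3.20 CPM in KO tumors. It was at 0.0328, 0.252, 0.122 and 0.0694 CPM in NTC replicates 2 to 5 and at 36.4 CPM in NTC replicate 1. The low values rest on few reads. *S100a8* had 16 reads in KO replicate 3 (exact Poisson 95% interval 9.15 to 26.0) and 14 in NTC replicate 5 (7.65 to 23.5), so the smallest gap between the groups lay within counting error.

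*Clec4d* and *Clec4e*, which detect fungal and mycobacterial glycolipids, followed a similar order. *Clec4d* was at 31.3, 35.4, 6.80, 8.47 and 87.5 CPM in KO tumors, at 4.89, 8.17, 2.60 and 8.08 CPM in NTC replicates 2 to 5 and at 144 CPM in NTC replicate 1. *Clec4e* was at 15.5, 15.1, 3.54, 2.49 and 39.3 CPM in KO tumors, at 2.99, 5.58, 2.11 and 4.44 CPM in NTC replicates 2 to 5 and at 33.1 CPM in NTC replicate 1. For both lectins KO replicates 1, 2 and 5 were high and KO replicates 3 and 4 lay within or just above the range of NTC replicates 2 to 5. NTC replicate 1 was the highest tumor for *Clec4d* and the second highest for *Clec4e*, after KO replicate 5.

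For *Csf3r* and *Acod1* at least 1 KO tumor lay above NTC replicate 1. *Csf3r* was at 17.1, 39.0, 8.19, 6.34 and 43.3 CPM in KO tumors, at 2.50, 9.02, 1.50 and 12.0 CPM in NTC replicates 2 to 5 and at 30.6 CPM in NTC replicate 1. *Acod1* was at 49.9, 81.3, 20.7, 27.1 and 117 CPM in KO tumors, at 20.7, 31.2, 8.70 and 35.6 CPM in NTC replicates 2 to 5 and at 101 CPM in NTC replicate 1. KO replicate 5 was the highest tumor for both genes.

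*Retnlg* and *G0s2* departed from this order in different tumors. *Retnlg* was at 4.67, 2.96, 1.18, 2.13 and 4.98 CPM in KO tumors and at 3.64, 0.394, 0.883, 3.29 and 1.39 CPM in NTC replicates 1 to 5. It was the one tested member that was high in NTC replicate 4, where *Csf3r*, *Clec4d*, *Clec4e* and *Acod1* were lowest. *G0s2* was at 2.42, 3.23, 1.62, 1.12 and 1.78 CPM in KO tumors, at 0.919, 0.820, 0.651 and 0.763 CPM in NTC replicates 2 to 5 and at 11.6 CPM in NTC replicate 1. Its 5 KO values lay above those 4 NTC tumors and below NTC replicate 1.

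**Figure D1:**
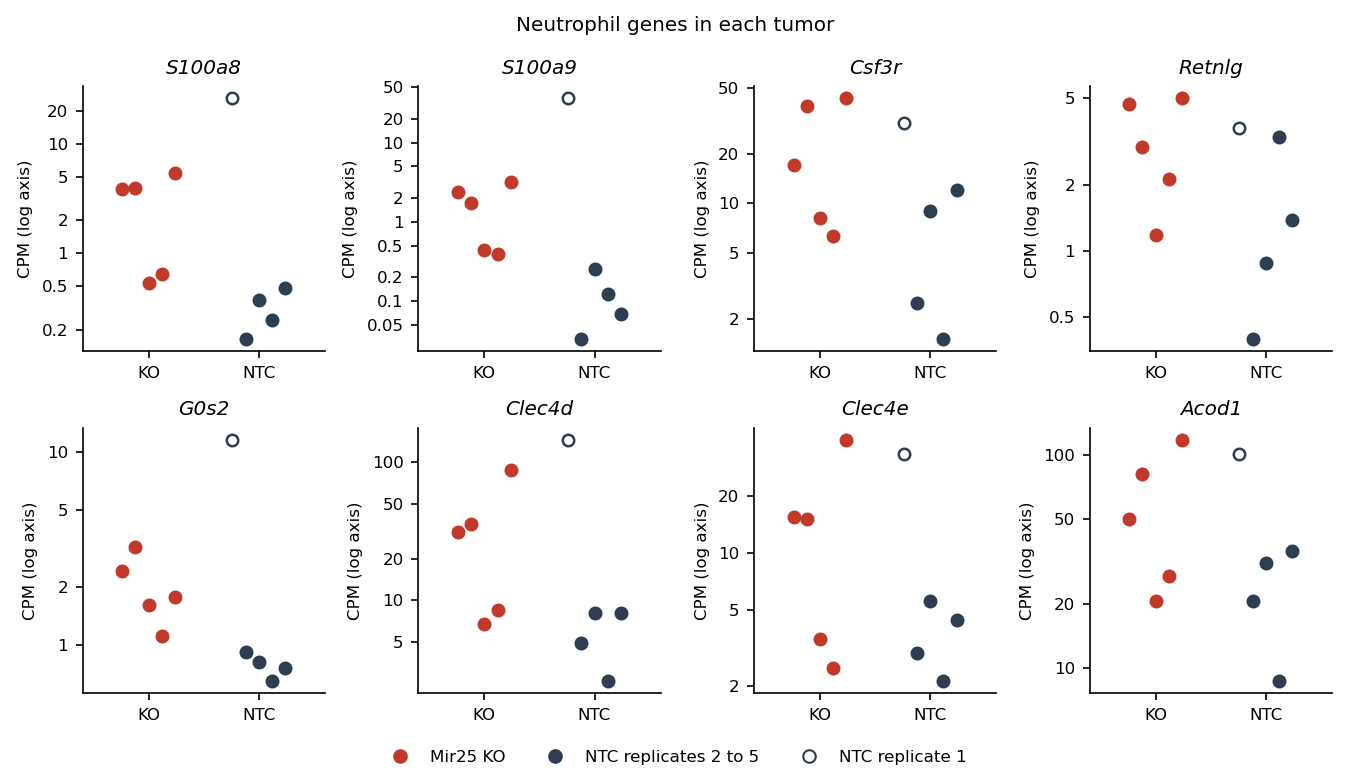
CPM (TMM-normalized, logarithmic axis) of the 8 neutrophil genes that passed the filter on low counts, 1 point per tumor, with KO replicates 1 to 5 and NTC replicates 1 to 5 from left to right in each group. NTC replicate 1 (open circle) is the highest point for *S100a8* (26.0 CPM), *S100a9* (36.4 CPM), *G0s2* (11.6 CPM) and *Clec4d* (144 CPM), and KO replicate 5 is the highest point for *Clec4e* (39.3 CPM) and *Acod1* (117 CPM).

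On the TPM scale, which divides reads by exon length and was not corrected by TMM, *Acod1* and *Clec4d* led the members. In KO tumors *Acod1* was at 54.1 ± 32.6 TPM and *Clec4d* at 49.6 ± 44.1 TPM (SD, n = 5). *Csf3r* (15.1 ± 10.8), *Retnlg* (12.9 ± 5.49), *S100a8* (9.74 ± 6.86), *S100a9* (7.33 ± 5.02), *Clec4e* (7.13 ± 6.46) and *G0s2* (5.79 ± 2.15) followed. The levels of *Clec4d* and *Csf3r* differed by less than the SD of *Clec4d* but by more than that of *Csf3r*. The other neighbors in this order differed by less than either SD, down to *G0s2*, below which *Trem1* and *Ly6g* lay at or under 0.102 TPM in every KO tumor. In NTC replicates 2 to 5 *Acod1* was at 25.7 ± 13.8 TPM and *Clec4d* at 10.4 ± 5.25 TPM (SD, n = 4), and the calprotectin genes came after all other tested members, with *S100a8* at 1.26 ± 0.624 TPM and *S100a9* at 0.628 ± 0.549 TPM. NTC replicate 1 had another order, with *Clec4d* at 92.0 TPM, *S100a9* at 71.1, *Acod1* at 39.3 and *S100a8* at 38.2. In that tumor the *Csf3r* level, 8.64 TPM, lay within the range of the other NTC tumors (0.976 to 9.36 TPM).

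Over all 10 tumors no member was called by edgeR's quasi-likelihood test (Benjamini-Hochberg adjusted p under 0.05 and an absolute log2 fold change above 1). Of the 10 members, 8 passed the filter on low counts, and *Ly6g* and *Trem1* did not. Over all 15821 genes tested, 0.019% were called. At an unadjusted p under 0.05, 0 members were higher in KO tumors, against 3.99% of all genes tested, and 0 were lower, against 4.85%. For 0 members did the KO values lie above those of all 5 NTC tumors, against 0.866% of all genes tested. The log2 fold change of KO against NTC was -2.12 (standard error 1.66) for *S100a9*, -0.85 (1.38) for *S100a8* and -0.44 (0.84) for *G0s2*. It was 0.05 (1.12) for *Clec4d*, 0.60 (0.64) for *Acod1*, 0.70 (0.91) for *Clec4e*, 0.77 (0.60) for *Retnlg* and 1.07 (0.81) for *Csf3r*. The adjusted p by edgeR lay between 0.733 and 0.993, and the median over the 8 members was 0.32, against 0.01 over all genes tested. Group means differed by less than the spread, as for *S100a8* with 2.87 ± 2.16 CPM in KO and 5.45 ± 11.5 CPM in NTC tumors (SD, n = 5 each). With limma-voom all 8 fitted values were positive over the same tumors, with a median of 1.36 and limma-voom adjusted p from 0.427 to 0.600. DESeq2 also called 0 members over these tumors, where it called 24 genes higher and 72 lower of 15763 with an adjusted p. Of the 8 tested members, 6 had an adjusted p. DESeq2 gave no p for *S100a9* and *G0s2*, since it withholds p where a single sample holds an extreme count.

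Without NTC replicate 1, all 8 tested members had higher fitted levels in KO tumors, and 0 were called by edgeR, where 0.106% of 16078 genes were called. At an unadjusted p under 0.05, 7 of the 8 were higher, all but *Retnlg*, against 12.0% of all genes tested. *S100a9* passed the filter on low counts only through the KO tumors, since NTC replicates 2 to 5 had 1, 8, 3 and 2 reads. *S100a8*, with 5 to 14 reads there, also needed its KO counts to pass. Both were thus among the tested members because of their KO counts. No member was lower, against 8.1% of all genes tested. The count of 7 fell to 4 without KO replicate 5, where 7.17% of all genes tested were higher, and to 4 without NTC replicate 2, where 7.22% were. It was 3 with the leukocyte content of each tumor (a score of 10 genes) as a covariate, where 5.04% were. The log2 fold change was 3.66 (standard error 0.81, edgeR adjusted p = 0.109) for *S100a9*, 3.10 (0.75, adjusted p = 0.131) for *S100a8* and 2.46 (0.73, adjusted p = 0.163) for *Clec4d*. It was 1.95 (0.73) for *Clec4e*, 1.82 (0.74) for *Csf3r*, 1.32 (0.33) for *G0s2*, 1.25 (0.54) for *Acod1* and 1.07 (0.60) for *Retnlg*, with edgeR adjusted p from 0.136 to 0.341. The median over the 8 members was 1.88, against -0.02 over all genes tested. The KO values lay above all those of NTC replicates 2 to 5 for 3 of the 8 members, *S100a8*, *S100a9* and *G0s2*, as they did for 2.71% of all genes tested. For *S100a9* the NTC side of this rests on 14 reads in all. Mean *S100a9* was 1.62 ± 1.22 CPM in KO tumors (SD, n = 5) and 0.119 ± 0.0961 CPM in NTC replicates 2 to 5 (SD, n = 4).

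DESeq2 gave another result over the same 9 tumors. Without a filter it called 5 members as higher in KO tumors, against 3.32% of the 18601 genes with an adjusted p. They were *S100a9* (log2 fold change 3.74, DESeq2 adjusted p = 0.000402), *S100a8* (3.16, adjusted p = 0.000783), *G0s2* (1.34, adjusted p = 0.0103), *Clec4d* (2.51, adjusted p = 0.0287) and *Clec4e* (2.00, adjusted p = 0.0406). *Csf3r*, *Acod1* and *Retnlg* had adjusted p of 0.14, 0.106 and 0.261, and *Ly6g* and *Trem1* had none. On the genes past edgeR's filter DESeq2 called the same 5 members, against 3.4% of genes with an adjusted p. The fit without a filter also called 5 of 10 leukocyte genes, 5 of 12 monocyte and macrophage genes and 6 of 8 erythrocyte and platelet genes as higher. The fitted fold changes of both tools were close, as for *Clec4d* at 2.46 by edgeR and 2.51 by DESeq2, so the difference between the tools lies in their p-values.

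**Figure D2:**
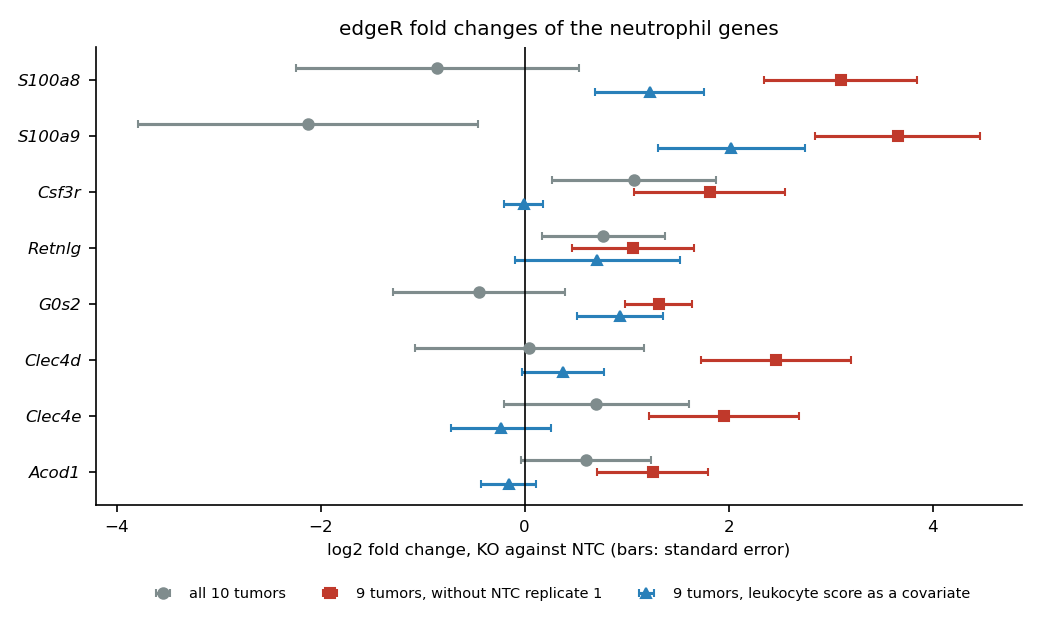
Fitted log2 fold change of KO against NTC tumors from edgeR for 8 neutrophil genes, with bars for the standard error, over all 10 tumors (grey circles), over 9 tumors (red squares) and over 9 tumors with adjustment for the leukocyte score (blue triangles). *S100a8* and *S100a9* lie at -0.85 and -2.12 with NTC replicate 1 and at 3.10 and 3.66 without it, whereas *Csf3r* lies at 1.07 and 1.82.

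Next, the members were set beside the leukocyte content of each tumor. A score averaging log2 CPM over 10 genes that most leukocytes share (such as *Ptprc*, *Lcp1* and *Coro1a*) was 7.01, 7.79, 6.10, 5.92 and 8.06 in KO replicates 1 to 5 and 7.66, 4.97, 6.18, 4.91 and 6.55 in NTC replicates 1 to 5. *Csf3r* rose with this score (Pearson's r = 0.99, Spearman's rho = 1, n = 10 tumors, two-sided permutation p = 1e-05 for both, the smallest that 100000 resamples can give). So did *Acod1* (r = 0.96, permutation p = 2e-05; rho = 0.95, permutation p = 0.00013). For *Clec4d* r was 0.92 (permutation p = 0.0001) and rho 0.88 (permutation p = 0.0017), and for *Clec4e* r was 0.92 (permutation p = 0.00015) and rho 0.94 (permutation p = 0.00018). For *S100a8* r was 0.88 (permutation p = 0.00051) and rho 0.84 (permutation p = 0.0041), and for *S100a9* r was 0.79 (permutation p = 0.0053) and rho 0.76 (permutation p = 0.015). For *G0s2* r was 0.71 (permutation p = 0.017) and rho 0.72 (permutation p = 0.025), and for *Retnlg* r was 0.63 (permutation p = 0.053) and rho 0.59 (permutation p = 0.081). Differences between these correlations were not tested. These are 8 relations on the same tumors and library sizes, and their p-values are unadjusted. Without KO replicate 5 and NTC replicate 4, the tumors farthest from the median score, r stayed between 0.76 and 1.00, and for *Retnlg* it was 0.85. Without NTC replicate 1 it was 0.93 for *S100a8*, 0.85 for *S100a9* and 0.59 for *Retnlg*. The score's groups overlap, and each group of 5 tumors is too small for a correlation of its own.

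**Figure D3:**
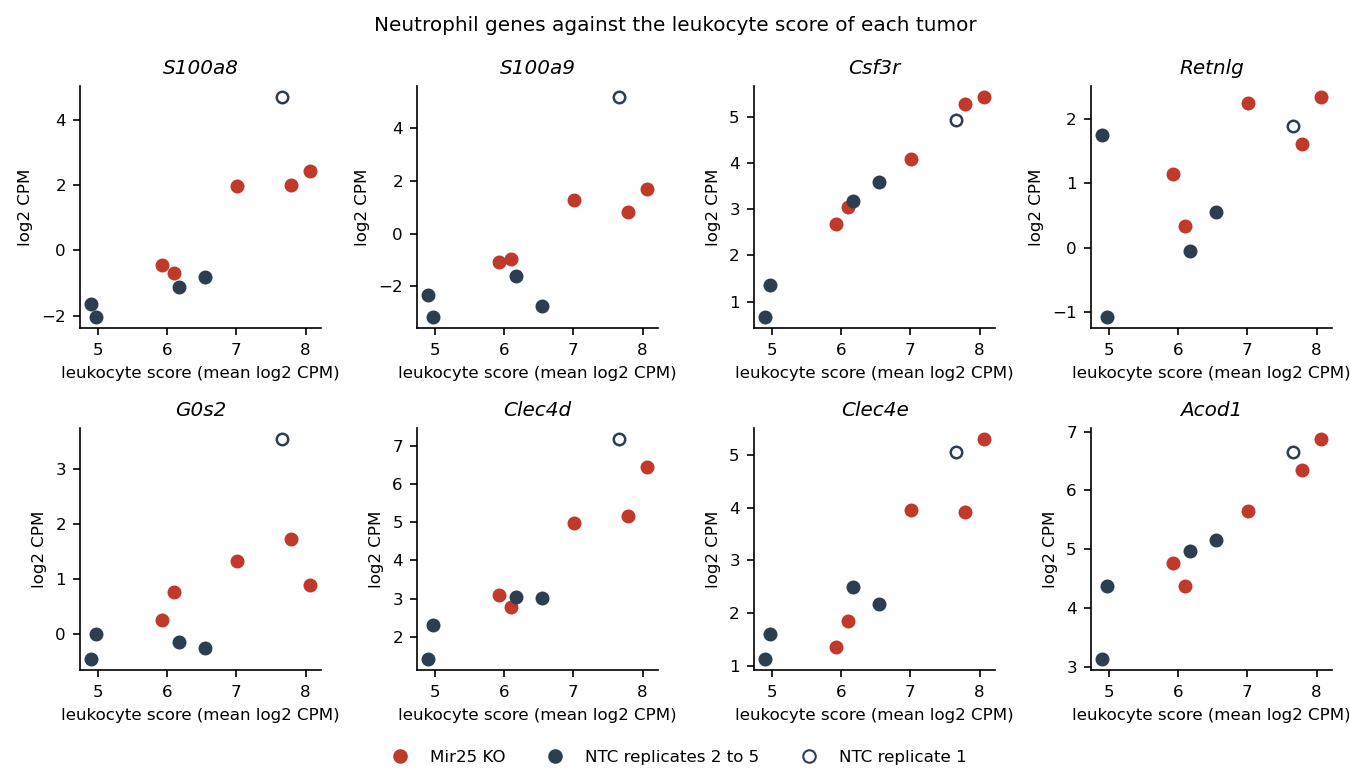
Level of 8 neutrophil genes (log2 CPM, vertical) against the leukocyte score (mean log2 CPM of 10 leukocyte genes, horizontal), 1 point per tumor. *Csf3r* lies close to a line across all tumors (r = 0.99). NTC replicate 1 (open circle) lies above the other tumors of a like score for *S100a8*, *S100a9*, *G0s2* and *Clec4d*, and NTC replicate 4 is high for *Retnlg*.

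With the leukocyte score as a covariate, the fitted differences shrank for most members. Over 9 tumors the log2 fold change was -0.01 (standard error 0.19) for *Csf3r*, -0.16 (0.27) for *Acod1*, -0.23 (0.49) for *Clec4e* and 0.37 (0.40) for *Clec4d*. It was 0.71 (0.81) for *Retnlg*, 0.93 (0.42) for *G0s2*, 1.22 (0.54) for *S100a8* and 2.03 (0.72) for *S100a9*, and the edgeR adjusted p of these 8 members lay between 0.378 and 0.996. Over all 10 tumors 6 of the 8 fitted values were negative, from -0.24 for *Acod1* to -1.63 for *S100a9*, and *Csf3r* (0.04) and *Retnlg* (0.35) were the exceptions, with adjusted p between 0.518 and 0.936. Macrophage genes moved with the members too. The summed level of 12 monocyte and macrophage genes ran from 1034 to 4612 CPM in KO tumors and from 346 to 1476 CPM in NTC replicates 2 to 5, and it was 3896 CPM in NTC replicate 1. Over 9 tumors 11 of these 12 genes and 7 of the 10 leukocyte genes were higher at an unadjusted p under 0.05, against 12.0% of all genes tested. Blood genes did so as well. The summed level of 8 erythrocyte and platelet genes ran from 260 to 1618 CPM in KO tumors and from 81.0 to 218 CPM in NTC replicates 2 to 5, and it was 541 CPM in NTC replicate 1. Over 9 tumors 6 of the 7 blood genes tested were higher at the same threshold, as were 4 of 8 T cell genes and 2 of 7 adipocyte genes, and 2 of 7 melanoma genes were lower, against 8.1% of all genes tested. Summed T cell genes were at 34.4 to 186 CPM in KO tumors, 22.6 to 82.7 CPM in NTC replicates 2 to 5 and 89.9 CPM in NTC replicate 1, and adipocyte genes at 37.2 to 176, 9.11 to 78.2 and 233 CPM. Summed melanoma genes were at 11774 to 19339, 18957 to 21329 and 11282 CPM in the same sets. The part of these cell types in the members' differences was not tested apart from the score.

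Ratios within a library need no normalization factor and were compared next. *Arhgdib*, 1 of the 10 leukocyte genes, was nearly even across tumors, at 213 to 270 CPM in KO tumors and 205 to 234 CPM in NTC replicates 2 to 5. The sum of the 10 genes ran from 840 to 3368 and from 525 to 1210 CPM in these sets. *Arhgdib* thus held a larger part of the leukocyte reads in tumors with a low sum, which lowers their ratios. Ratios without it were not computed, and the separations below hold for this denominator only. Per 1000 reads on the 10 leukocyte genes, *S100a8* had 2.29, 1.44, 0.579, 0.773 and 1.58 reads in KO tumors and 0.308, 0.381, 0.464 and 0.402 in NTC replicates 2 to 5. In NTC replicate 1 it had 9.71. *S100a9* had 0.470 to 1.41 reads in KO tumors, 0.0574 to 0.254 in NTC replicates 2 to 5 and 13.6 in NTC replicate 1. For these 2 genes the KO ratios lay above all those of NTC replicates 2 to 5, as they did for 0.473% of all genes tested. Reads on the 12 monocyte and macrophage genes separated these tumors too, at 1232 to 1522 per 1000 leukocyte reads in KO tumors, 659 to 1220 in NTC replicates 2 to 5 and 1455 in NTC replicate 1 (log2 difference 0.52 over 9 tumors, exact permutation p = 0.0159, unadjusted). The mean log2 ratio was higher in KO tumors by 1.62 for *S100a8* and by 2.57 for *S100a9* over 9 tumors (two-sided exact permutation p = 0.0159 for both, unadjusted, the smallest possible for 5 against 4 tumors). With all 10 tumors the differences were 0.69 (exact permutation p = 0.532) and 1.21 (exact permutation p = 0.444), with NTC replicate 1 above every KO tumor. For the other tested members the ratios overlapped between groups. Over 9 tumors the log2 difference was 0.94 for *Clec4d* (exact permutation p = 0.0635), 0.82 for *Csf3r* (p = 0.127), 0.32 for *Clec4e* (p = 0.492), 0.20 for *Retnlg* (p = 0.841), 0.17 for *G0s2* (p = 0.730) and 0.08 for *Acod1* (p = 0.730).

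NTC replicate 1 was the highest of the 10 tumors in these ratios for *S100a8*, *S100a9*, *G0s2*, *Clec4d* and *Clec4e*, and it ranked 3 for *Csf3r*, 5 for *Retnlg* and 2 for *Acod1*. Its *Clec4d* ratio was 53.8, against 4.95 to 26.0 in the other 9 tumors, and its *G0s2* ratio 4.33, against 0.528 to 1.74. It held 1.40 *S100a9* reads per *S100a8* read, against 0.143 to 0.813 elsewhere. It held 4.35 *Clec4d* reads per *Clec4e* read, against 1.92 to 3.41 in KO tumors and 1.23 to 1.82 in NTC replicates 2 to 5, which did not overlap. The exact permutation p was 0.0159 over 9 tumors, the smallest possible, and 0.389 over 10 (two-sided, unadjusted). For *S100a9* per *S100a8* read the groups overlapped (exact permutation p = 0.143 over 9 tumors and 0.397 over 10). The same held for calprotectin per *Csf3r* reads (exact permutation p = 0.0952 and 0.913). How often other gene pairs separate the groups was not examined. There were 204 calprotectin reads per 100 *Csf3r* reads in NTC replicate 1, against 4.61 to 36.5 elsewhere. Its ratios of *Csf3r* (11.4, against 2.86 to 14.2) and *Acod1* (37.7, against 16.6 to 39.0) lay within the range of the other tumors, whereas those of the calprotectin genes, *G0s2* and *Clec4d* lay above it.

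**Figure D4:**
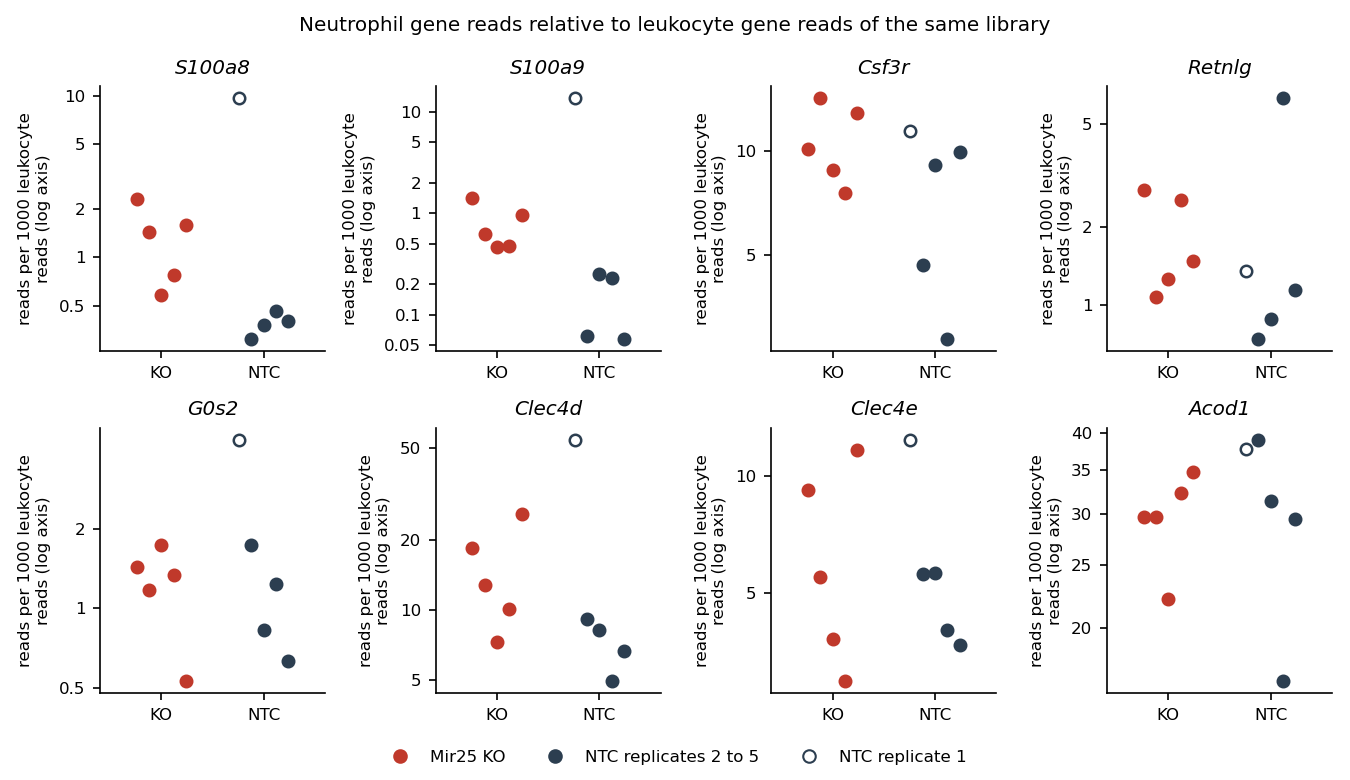
Reads on each of 8 neutrophil genes per 1000 reads on 10 leukocyte genes of the same library (logarithmic axis), 1 point per tumor, with replicates 1 to 5 from left to right in each group. For *S100a8* and *S100a9* NTC replicate 1 (open circle) lies at 9.71 and 13.6, the KO tumors lie between 0.470 and 2.29, and NTC replicates 2 to 5 reach at most 0.464, whereas the groups overlap for *Csf3r* and *Acod1*.

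The density of reads on otherwise silent genes in NTC replicate 1 was set beside these levels. On 16205 autosomal genes with no read in the other 9 libraries, it had 0.956 reads per kilobase of exon. At that density there would be 0.663 of its 193 *S100a8* reads (0.344%), 0.499 of its 270 *S100a9* reads (0.185%), 0.833 of its 86 *G0s2* reads (0.968%) and 1.53 of its 1070 *Clec4d* reads (0.143%). For *Trem1* there would be 2.86 of 7 reads, and for *Ly6g* 0.900 of 1 read.

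Other neutrophil genes, in 5 lists of 44 genes, were examined by the same tests. Of these, 27 passed the filter and 0 were called by edgeR in either comparison. With all 10 tumors 1 was higher and 1 lower in KO tumors at an unadjusted p under 0.05, where 3.99% of all genes tested were higher and 4.85% lower. The median log2 fold change was -0.17. Over 9 tumors 4 were higher and 0 lower, where 12.0% of all genes tested were higher and 8.1% lower, with a median of 1.04. For 27 genes the counts of higher genes lay near these shares. By DESeq2 without a filter over 9 tumors, 4 of them were called higher, *Cxcr2*, *Asprv1*, *Ccl6* and *Nlrp3*, against 3.32% of the genes with an adjusted p. *Asprv1* is also expressed in skin, and it was highest in KO replicate 3, which had the highest summed keratinocyte level (26.8 CPM, against 9.52 in KO replicate 4, 3.37 in NTC replicate 1 and at most 0.532 elsewhere). The part of skin cells in this call was not tested.

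Granule genes did not share 1 pattern. None of the 5 primary granule genes passed the filter, and the most abundant of them, the proteases *Ctsg* and *Prtn3*, had at most 34 and 13 reads. Of the 8 genes of secondary and tertiary granules, 5 were tested, and over 9 tumors 2 were higher at an unadjusted p under 0.05, against the same 12.0% of all genes tested. *Mmp8*, a neutrophil collagenase, was at 17.3, 0.987, 0.707, 2.81 and 22.3 CPM in KO tumors, at 0.813 to 1.90 CPM in NTC replicates 2 to 5 and at 46.2 CPM in NTC replicate 1. It was thus high in KO replicates 1 and 5 and not in KO replicate 2, where *S100a8* and *Csf3r* were high. The peptidoglycan receptor *Pglyrp1* was at 1.15 to 3.84 CPM in KO tumors, at 0.328 to 1.11 CPM in NTC replicates 2 to 5 and at 1.62 CPM in NTC replicate 1. The siderophore-binding protein *Lcn2* was at 0.144 to 1.58 CPM in KO tumors, at 0.0657 to 1.29 CPM in NTC replicates 2 to 5 and at 7.95 CPM in NTC replicate 1. The gelatinase *Mmp9* was at 0.722 to 3.87, 0.197 to 1.34 and 11.5 CPM in the same 3 sets.

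Among 12 genes of mature neutrophils, 7 were tested and 0 had an unadjusted p under 0.05 in either comparison. Over all genes tested, 3.99% were higher and 4.85% lower with 10 tumors, and 12.0% and 8.1% with 9. For 7 genes a count of 0 is not far from these shares. The formyl peptide receptor *Fpr2* was at 4.79 to 34.2 CPM in KO tumors, at 0.773 to 10.2 CPM in NTC replicates 2 to 5 and at 16.8 CPM in NTC replicate 1. Its relative *Fpr1* was at 2.75 to 16.8, 0 to 6.94 and 29.6 CPM in these sets, with 0 reads in NTC replicate 4. *Slfn4*, an interferon-induced myeloid gene, was at 0.606 to 29.9, 1.18 to 5.84 and 31.5 CPM. *Hdc*, the histidine decarboxylase that basophils and mast cells also express, was at 1.30 to 2.73, 1.22 to 3.06 and 15.4 CPM. *Stfa2l1*, a stefin of mature neutrophils that was picked out after its values were seen, had 32 reads in NTC replicate 1, 1 in KO replicate 2 and 0 in the other 8 libraries. The summed level of 10 mast cell, basophil and eosinophil genes was 34.9 CPM in NTC replicate 1, against 1.38 to 21.4 CPM elsewhere.

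The CXC ligands that recruit neutrophils were highest in NTC replicate 1. *Cxcl2*, a CXCR2 ligand, was at 1.56, 0.0380, 0.202, 1.12 and 1.73 CPM in KO tumors, at 0.163 to 0.599 CPM in NTC replicates 2 to 5 and at 76.2 CPM in NTC replicate 1. *Cxcl3* had 168 reads in NTC replicate 1 and at most 24 in any other tumor. *Cxcl5* was at 0.202 to 6.76 CPM in KO tumors, at 0 to 2.65 CPM in NTC replicates 2 to 5 and at 14.7 CPM in NTC replicate 1. *Cxcl1* was at 2.42 CPM in that tumor and at 0.104 to 1.16 CPM elsewhere. Of these ligands, 3 were tested. Over 10 tumors *Cxcl2* was lower in KO tumors at an unadjusted p under 0.05 (log2 fold change -4.03, edgeR adjusted p = 0.553), and over 9 tumors its log2 fold change was 1.18 (edgeR adjusted p = 0.443).

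All 12 inflammatory genes of tumor neutrophils were tested, and many of them are also macrophage genes. Over 9 tumors all 12 fitted values were positive and 2 were higher at an unadjusted p under 0.05, *Ccl6* and *Nlrp3*, against 12.0% of all genes tested. The chemokine *Ccl6* was at 116 to 762 CPM in KO tumors, at 62.9 to 141 CPM in NTC replicates 2 to 5 and at 917 CPM in NTC replicate 1. *Nlrp3*, the inflammasome sensor, was at 4.68 to 16.3 CPM in KO tumors, at 1.75 to 4.39 CPM in NTC replicates 2 to 5 and at 18.2 CPM in NTC replicate 1. *Il1rn*, the interleukin-1 receptor antagonist, reached 124 CPM in KO tumors, 31.1 CPM in NTC replicates 2 to 5 and 192 CPM in NTC replicate 1. The chemokine *Ccl4* was at 6.34 to 34.2, 4.72 to 18.0 and 35.4 CPM, and the cystine transporter *Slc7a11*, which melanoma cells also express, at 16.8 to 80.9, 19.1 to 34.1 and 71.9 CPM. With NTC replicate 1 included, 5 of the 12 fitted values were positive and 7 negative.

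Among the members themselves, log2 CPM correlated closely within the neighboring pairs and within some others, as a description over 10 tumors that share libraries and library sizes. Pearson's r was 0.98 for *S100a8* with *S100a9* and 0.97 for *Clec4d* with *Clec4e*, and without NTC replicate 1 it was 0.96 and 0.97. It was also 0.97 for *S100a8* with *Clec4d* and 0.96 for *Csf3r* with *Acod1*. The lowest value was 0.48, for *Retnlg* with *Acod1*. The genes most like the mean scaled level of the 8 tested members over 10 tumors were *Adssl1* (r = 0.99), *Mmp27*, *Lilr4b*, *Lilrb4a* and *Vav3* (each 0.98). *Lilr4b* and *Lilrb4a* are close copies whose reads the counting could have split. Over 9 tumors they included *Cnppd1*, *Dleu2*, *Sgk1* and *Cd36* (each 0.99), none of which was among the 5 genes over 10 tumors.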

How the data were processed

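RNA of 10 tumors was sequenced. The authors counted reads per gene and deposited the counts without normalization, as whole numbers on 55401 gene rows with 5 summary rows, which were left out here. The submitters' processing notes name FastQC, Trimmomatic, HISAT2, HTSeq and mm10. The annotation and strand setting are not given in the sources used here, so positions and exon lengths came from GENCODE M21 on GRCm38, with lengths for 53177 rows (96.0%). Promoters are RefSeq's, and all members matched. Symbols that occur more than once (107) were kept as separate rows.

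Counts were tested with edgeR 4.0.16 (quasi-likelihood, TMM, filterByExpr, Benjamini-Hochberg over all genes tested), over 10 tumors and over 9 without NTC replicate 1. Alternatives were DESeq2 1.42.0, limma-voom 3.58.1 and those in the closing section. A gene was called at an adjusted p under 0.05 and an absolute log2 fold change above 1. CPM used TMM library sizes, with a prior count of 2 for log2 values. R 4.3.3, Python 3.11.15, pandas 2.3.3, numpy 2.4.6, scipy 1.17.1 and matplotlib 3.10.9 were used, and the fits were checked on simulated counts. Intervals cover counting error only, and reads carried no molecular identifiers.

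The labels number the tumors within a group and name no shared animal or batch, so p-values measure the spread between these tumors. The members, the lists and the tests were chosen with earlier results of these data known, and the ratios to leukocyte reads were added after the members' values were seen. Besides the members, the text names the up to 4 most abundant genes (by mean CPM) of each neutrophil list, genes called by a tool, the 5 genes most like the members in each set of tumors (of which 1 is not reported here), and genes marked as chosen after their values were seen. T cell, adipocyte, blood and melanoma lists served only as checks of tumor content.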

Additional observations from a re-analysis of the deposited data

Results flagged for a closer look

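Among 35 neutrophil genes past the filter, the tumors of each group of 5 were compared with each other on the log2 CPM scale, 70 comparisons in all. In 7 of them 1 tumor lay far from the rest by Dixon's ratio, and all 7 belong to NTC replicate 1. Chance gives about 1 in 20 such values among independent comparisons, but these genes share libraries and correlate, and NTC replicate 1 had been singled out before, so the count only describes that tumor. Of these, 4 are members. *S100a8* was at 26.0 CPM in that tumor, against 0.164 to 0.486 in the other 4 NTC tumors. *S100a9* was at 36.4 CPM, against 0.0328 to 0.252, *G0s2* at 11.6 CPM, against 0.651 to 0.919, and *Clec4d* at 144 CPM, against 2.60 to 8.17. The other 3 are *Mmp8* (46.2 CPM, against 0.813 to 1.90), the CXCR2 ligand *Cxcl2* (76.2 CPM, against 0.163 to 0.599) and the activin subunit *Inhba* (43.1 CPM, against 2.50 to 4.95).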

How the results depend on the processing

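Over all 10 tumors 0 members and 0 other neutrophil genes were called under every alternative run. Over all genes DESeq2 called the most in these runs, 24 higher and 72 lower of 15821 tested. Over 9 tumors edgeR called 0 of each under every setting run, while DESeq2 called 5 members with and without a filter and 2 (filtered) or 4 (unfiltered) other neutrophil genes, against 3.4% (filtered) or 3.32% (unfiltered) of all genes with an adjusted p. The median member log2 fold change over 10 tumors, 0.32, became -0.018 without a filter (which adds *Ly6g* and *Trem1*) and -0.57 with the leukocyte score as a covariate, while it was 0.65 with at least 10 counts in every tumor (which drops *S100a8* and *S100a9*), 0.70 with library totals alone and 1.36 with limma-voom, and leaving out 1 tumor gave -0.21 (without KO replicate 5) to 1.88 (without NTC replicate 1). Over 9 tumors the median, 1.88, became 0.54 with the leukocyte score, and leaving out 1 tumor gave 1.44 to 2.23. The cause was not tested.

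Among the members' own fold changes over all 10 tumors, some reversed. With the leukocyte score *Acod1* was at -0.24, *Clec4d* at -0.66 and *Clec4e* at -0.49. With limma-voom *S100a8* was at 1.94, *S100a9* at 2.32 and *G0s2* at 0.88, and with library totals alone *G0s2* was at 0.031. Leaving out 1 tumor gave -1.19 to 3.10 for *S100a8*, -2.51 to 3.66 for *S100a9* and -0.71 to 1.32 for *G0s2*, each positive only without NTC replicate 1. It gave -0.67 to 2.46 for *Clec4d* and -0.024 to 1.95 for *Clec4e*, with the lowest without KO replicate 5 and the highest without NTC replicate 1. With the replicate number as a block *S100a8* was at 1.52, *S100a9* at 1.79 and *G0s2* at 0.58, and the member medians were 1.07 (10 tumors) and 1.58 (9 tumors), with 0 members called. The labels do not say whether same-numbered tumors are paired. Same-numbered tumors deviated together with correlations from -0.29 to 0.63. KO replicates 1 and 4 correlated best with the NTC tumor of their own number, and the other KO replicates did not. These values cannot decide whether the numbers pair the tumors. *Csf3r* and *Retnlg* kept their sign in every alternative run over all 10 tumors.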

Other observations

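A pair of secondary granule genes, picked out after their values were seen, had their highest counts in KO replicate 2. *Ltf*, which encodes lactoferrin, reached 145 reads in KO replicate 2 and 104 reads in KO replicate 3, and had 0 to 24 reads in each of the other 8 tumors. *Ngp*, a neutrophil granule protein, had 21 reads in KO replicate 2 and 0 or 1 elsewhere. KO replicate 2 also had the highest summed level of 8 erythrocyte and platelet genes, 1618 CPM, against 260 to 578 CPM in the other KO tumors, 541 CPM in NTC replicate 1 and 81.0 to 218 CPM in the other NTC tumors. The part of blood in these values was not tested.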
